A study of Gallus gallus with 21 samples.

Results

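Inhibins and activins are dimers built from a small set of subunits of the TGF-beta family. An alpha subunit (INHA) joined to a beta subunit (INHBA or INHBB) makes an inhibin, which holds down the release of follicle-stimulating hormone from the pituitary, whereas a pair of beta subunits makes an activin, which promotes it. Activins bind a type II receptor (ACVR2A or ACVR2B) that recruits a type I receptor kinase and so signals through SMAD proteins to the nucleus. Follistatin (FST) binds activin and keeps it from its receptors. In the gonads of vertebrates the inhibin subunits are products of the supporting cells, which are the Sertoli cells of the testis and the granulosa cells of the ovary.

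The genes were taken by name: the subunits INHA, INHBA and INHBB, the antagonist FST, the type I receptors ACVR1 and ACVR1B, and the type II receptors ACVR2A and ACVR2B. Of these 8 genes, 7 had probe sets among the deposited values, 11 of 19874 probe sets in all. ACVR1 was found under the name ATVR1, for which the gene table gives ACVR1 as a synonym. ACVR1B matched no probe set of the table used and is not described. INHA, INHBB, ACVR1 and ACVR2A lie on chromosome 7, INHBA and ACVR2B on chromosome 2, and FST on Z, of which males have a pair and females a single copy. INHA, INHBA, INHBB and FST had a pair of probe sets each, and the receptors had 1 each. The main probe set of a gene was that with values in most tissues and, among equals, with the highest mean. That of INHA carries the suffix of probe sets shared by more than one transcript, and the second probe set of INHBB the suffix for alternative transcripts of one gene.

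The series holds Affymetrix chicken arrays of White Leghorn embryos of 18 days, for which the labels name no treatment. The 21 arrays fall into 6 groups: testes (n = 4, embryos 16, 19, 21 and 9), left ovaries (n = 3, embryos 12, 20 and 2), male brain (n = 3, embryos 16, 19 and 21), female brain (n = 4, embryos 10, 12, 20 and 2), male heart (n = 3, embryos 16, 19 and 21) and female heart (n = 4, embryos 10, 12, 20 and 2). Gonads were taken from the left side and heart from the apex, and the brain sample comprised the diencephalon plus what remained of other regions. RNA of gonads came from a different kit (for small samples) than RNA of both somatic tissues, so tissue and kit cannot be told apart in any comparison of gonad with soma. Values are log2 intensities and are given below in the order of embryos just stated. A probe set has values in a tissue only where the mean of the higher sex reached 4.0, and a group mean below 4.0 is not told apart from background here. Where a tissue has no values, no level is given.

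The labelled tissues were checked against marker lists. Heart muscle markers averaged 14.61 to 14.65 over 7 of 8 genes in male hearts and 14.62 to 14.68 in female hearts, and neuron and chromaffin markers averaged 11.60 to 11.83 over 7 of 9 genes in male brains and 11.19 to 11.66 in female brains. Over 7 of 8 Sertoli cell markers the mean was 9.30 to 9.90 in testes and 7.38 to 7.57 in ovaries. Over 3 of 5 granulosa cell markers it was 2.25 to 2.27 in testes and 10.64 to 11.17 in ovaries. The Sertoli cell list was not particular to gonads. Over the 5 of its genes measured in brain the mean was 8.72 to 9.19 in males and 8.49 to 8.81 in females. Over the 4 measured in heart it was 7.41 to 8.09 in males and 7.24 to 8.19 in females. The ovaries of embryos 12 and 2 stood apart from the other gonads in some nerve and chromaffin genes. Tyrosine hydroxylase (TH), the rate-limiting enzyme of catecholamine synthesis, was 8.76 and 6.09 in them. It was 2.40 in the ovary of embryo 20 and at most 2.41 in testes. Not every gene of the list did so: CHGB was 6.19 in the ovary of embryo 12, 3.60 in that of embryo 2 and 4.18 in that of embryo 20. Arrays of 1 tissue correlated at 0.878 to 0.981 in gonads, 0.952 to 0.978 in brain and 0.951 to 0.979 in heart.

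The first question was whether the system differed between the sexes within a tissue. In gonads all 3 inhibin subunit genes were male-biased, and so was the receptor ACVR2B. By main probe sets the subunit genes had larger differences than any receptor gene. The second INHBA probe set differed by 0.87 on the log2 scale, less than ACVR2B (0.92). INHA was at least 44.3-fold higher in testes than in ovaries. The main probe sets of INHBB, INHBA and ACVR2B were 19.8-fold, 10.8-fold and 1.90-fold higher in testes. Follistatin and ACVR2A were not called different between testes and ovaries, and the difference of ACVR1 stayed just under the fold-change required. A probe set was called at an adjusted p below 0.05 and a fold-change over 1.5. Thus 4 of 7 genes were called, all of them higher in testes, where 26.6% of all 16499 probe sets measured in gonads were called and 12.8% were called higher in testes.

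INHA encodes the subunit that makes a dimer an inhibin. Its main probe set was at 9.39, 9.32, 10.05 and 9.12 in testes, against 1.84, 1.83 and 1.83 in ovaries. No array of either sex came near the other sex, and the ovaries lay far below the filter level, with an SD of 0.0064. The measured difference was 7.64 on the log2 scale (SE 0.22, adjusted p = 1.58e-07). However, INHA passed the filter through testes alone, and the ovaries were not told apart from background. The SE and p therefore do not measure the spread of INHA among ovaries. For this reason the difference is stated as a bound of 44.3-fold, the mean of testes over the filter level of 4.0. The second INHA probe set was at 7.12, 6.78, 7.36 and 7.20 in testes and at 1.68, 1.69 and 1.69 in ovaries, at least 8.67-fold higher in testes (adjusted p = 1.66e-07). Both probe sets thus gave the same direction. INHA had no values in brain or heart of either sex. In bulk RNA, fewer cells of a type and less RNA per cell cannot be told apart, and this holds for every gonadal value here.

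INHBB encodes the beta B subunit, shared by inhibin B and activin B. It was at 12.33, 12.09, 12.21 and 11.83 in testes, against 7.58, 7.76 and 8.09 in ovaries. The testes stood above the ovaries without overlap, but ovaries were also well above the filter level, in contrast to INHA. The difference was 4.31 (SE 0.19, adjusted p = 5.36e-09). The second probe set was at 10.47, 10.76, 10.81 and 10.42 in testes and at 4.57, 5.93 and 5.83 in ovaries, a difference of 5.17 (SE 0.33, 36.0-fold, adjusted p = 1.4e-05).

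INHBA encodes the beta A subunit of inhibin A and activin A. It varied more among testes, at 6.52, 7.42, 8.12 and 8.02, against 4.49, 3.85 and 3.90 in ovaries. The lowest testis, that of embryo 16, was still above every ovary, and 2 of 3 ovaries were under the filter level. The difference was 3.44 (SE 0.36, adjusted p = 1.11e-05). The second INHBA probe set was dim throughout, with 4.56, 3.92, 4.43 and 3.96 in testes and 3.35, 3.35 and 3.34 in ovaries. It was called at an adjusted p of 0.0483, yet its ovaries were below the filter level and its testes so near it that the bound was only 1.16-fold. The pair of probe sets therefore gave the same direction but differed widely in size.

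**Figure D1:**
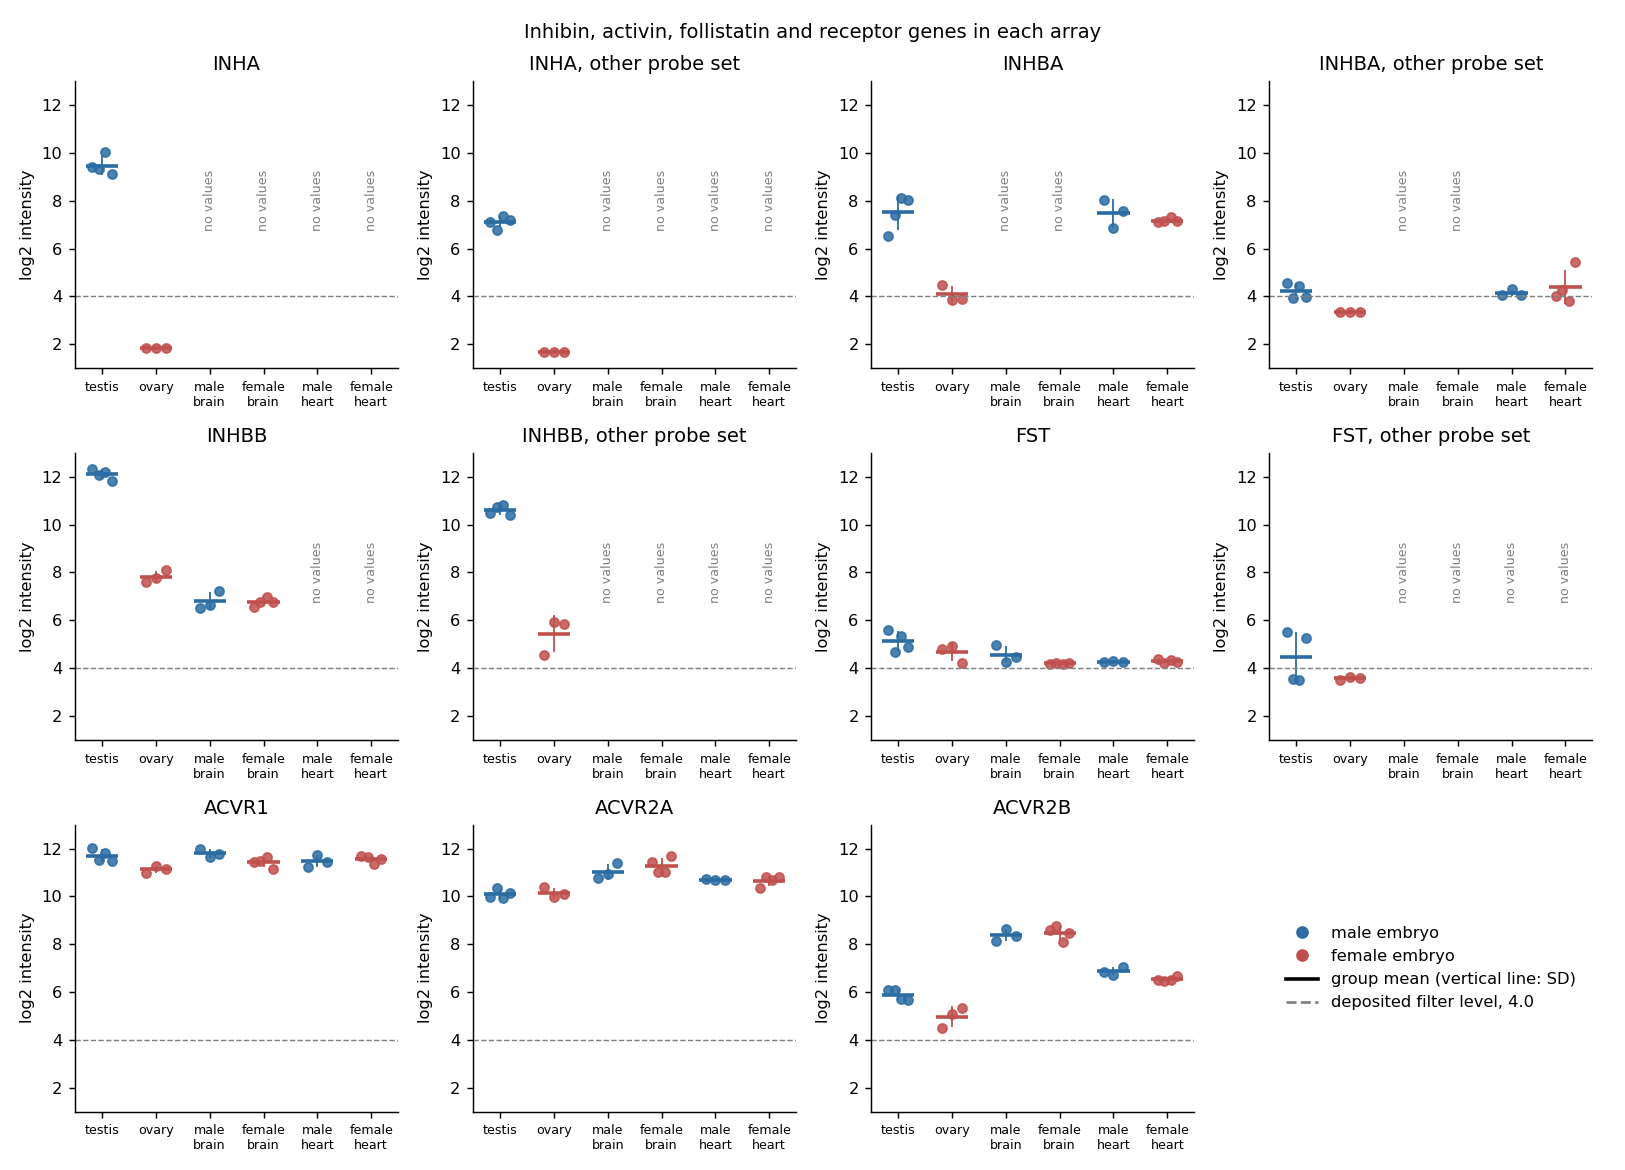
Log2 intensity (vertical axis) of every array for each probe set of the 7 genes, in testis, ovary, and male and female brain and heart. Points are embryos, horizontal lines group means and vertical lines SD, and the dashed line is the filter level of 4.0. INHA was at 9.12 to 10.05 in testes and at 1.83 to 1.84 in ovaries, whereas ACVR1 lay between 11.00 and 12.03 in every array.

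The antagonist FST was not called. Its main probe set was at 5.60, 4.69, 5.35 and 4.90 in testes and at 4.81, 4.94 and 4.23 in ovaries. Testes and ovaries overlapped, and all were little above the filter level. The difference of 0.48 (SE 0.20) had a 95% interval of 0.05 to 0.90 and an adjusted p of 0.0803, and it depended on single arrays. Without the testis of embryo 19 it was called (0.62, adjusted p = 0.0235), whereas it was 0.26 without the ovary of embryo 2. Without the ovaries of embryos 12 and 2, which leaves a single ovary, it was 0.20. The second FST probe set split the testes, with embryos 16 and 9 at 5.49 and 5.27 and embryos 19 and 21 at 3.53 and 3.52, against 3.52, 3.64 and 3.60 in ovaries (adjusted p = 0.268). As FST is Z-linked, its difference stands beside that of the chromosome: the median over 632 Z-linked probe sets in gonads was 0.74, and 53% of them were called higher in testes.

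Among the receptors, ACVR2B was at 6.07, 6.10, 5.72 and 5.69 in testes, against 4.49, 5.07 and 5.35 in ovaries. The groups did not overlap. The difference was 0.92 (SE 0.20, adjusted p = 0.00142). The other type II receptor, ACVR2A, was at 9.97, 10.33, 9.92 and 10.14 in testes and at 10.39, 9.97 and 10.11 in ovaries, with a difference of −0.07 (95% interval −0.45 to 0.32, adjusted p = 0.826). The type I receptor ACVR1, which also serves bone morphogenetic proteins, was at 12.03, 11.52, 11.80 and 11.46 in testes, against 11.00, 11.29 and 11.13 in ovaries. Its arrays did not overlap either, and its adjusted p was 0.0108, but the fold-change of 1.48 was under the threshold. Without the ovary of embryo 20, or the testis of embryo 19 or 9, ACVR1 passed it (0.64, 0.63 and 0.65). Testes and ovaries did not overlap for 5 of 7 genes, where the share was 39.9% of all probe sets.

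Other cell types also differed between the gonads, where 12.8% of all probe sets were called higher in testes and 13.8% lower. In testes 4 of the 7 measured Sertoli cell markers were called higher, led by CLDN11 (a log2 difference of 5.93) and SOX9 (at least 21.04-fold), and all 3 granulosa cell markers were lower and under the filter level there, among them aromatase (CYP19A1, at least 1462-fold). All 4 measured blood cell markers were called lower in testes, at a mean of 9.77 to 10.42 in testes and 11.02 to 11.68 in ovaries. One of them, CD74 (−0.60), lost its call without the ovary of embryo 12 or 20 or the testis of embryo 16 or 19. Of the 8 measured nerve and chromaffin markers, 6 were lower in testes, at 3.86 to 4.14 in testes and 4.34 to 7.93 in ovaries. That count was 3 without the ovary of embryo 12, 3 without that of embryo 2 and 8 without that of embryo 20. Of 4 measured heart muscle markers 3 were higher in testes, at 5.25 to 6.09 in testes and 3.76 to 4.07 in ovaries. Germ cell markers averaged 7.09 to 8.35 in testes and 8.01 to 9.38 in ovaries over 4 of 5 genes, with 1 called higher and 1 lower in testes. The higher one, DND1, lost its call without the ovary of embryo 12 or 2 or the testis of embryo 16, 19 or 21. Endothelium and connective tissue had 1 marker higher and 3 lower in testes of 7 measured, and the kidney gene UMOD, the only measured one of 8 adrenal and kidney markers, was at least 11.2-fold lower in testes. Their part in the differences above was not tested. The ovaries of embryos 12 and 2 were high in some nerve and chromaffin genes. Without both, the single ovary left (embryo 20, assumed to vary like other groups) gave 7.64 for INHA, 3.67 for INHBA, 4.36 for INHBB and 0.82 for ACVR2B. FST was 0.20 there and ACVR1 was 0.42, against 0.57 for ACVR1 with all arrays. The median over the 8 measured nerve and chromaffin markers was −0.19, against −1.93 with all arrays. Of these, CHGA was −1.19 and CHGB −1.29 as measured, and ELAVL4 was −0.59. STMN2 was −0.20, TH −0.18 and SNAP25 −0.01. For the 4 blood cell markers the median was −0.80, against −1.35 with all arrays. HBA1 was −0.74, against −1.38, HBAD −0.86, against −1.86, and CD74 −0.61, against −0.60. With 1 ovary left, no call is given for the markers of either list.

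In soma no gene of the system was called between the sexes. In brain 0 of 5 measured genes were called, where 1.58% of 16113 probe sets were. With unadjusted p below 0.05 there was 1, ACVR1, at 11.99, 11.63 and 11.78 in male brains and 11.44, 11.48, 11.63 and 11.16 in female brains, a difference of 0.37 (adjusted p = 0.427). INHBB was at 6.51, 6.64 and 7.22 in male brains and 6.54, 6.77, 6.99 and 6.76 in female brains, which overlap throughout (0.03, 95% interval −0.39 to 0.45). FST was at 4.96, 4.26 and 4.47 in male brains and within 4.19 to 4.23 in female brains. Its brains did not overlap between the sexes, which was so for 8.73% of probe sets, but all lay close to the filter level and the difference of 0.36 had an adjusted p of 0.592. The median over 605 Z-linked probe sets in brain was 0.64, and 28.9% of them were called higher in males. ACVR2A (−0.25, interval −0.64 to 0.13) and ACVR2B (−0.10, interval −0.51 to 0.31) overlapped between the sexes.

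In heart 0 of 5 genes were called either, against 1.73% of 15282 probe sets, and none had an unadjusted p below 0.05 in the limma fit. The main probe set of INHBA was at 8.04, 6.84 and 7.56 in male hearts and at 7.09, 7.15, 7.30 and 7.15 in female hearts. Male hearts spread on both sides of female hearts, so that the difference of 0.31 had an interval from −0.47 to 1.09 (adjusted p = 0.87). ACVR2B was at 6.85, 6.71 and 7.06 in male hearts and at 6.49, 6.46, 6.52 and 6.66 in female hearts, without overlap, as for 9.61% of probe sets, with a difference of 0.34 (adjusted p = 0.607). FST was within 4.25 to 4.28 in male hearts and 4.24 to 4.38 in female hearts, a difference of −0.03 (interval −0.46 to 0.39). The median over 555 Z-linked probe sets in heart was 0.55, and 29.4% of them were called higher in males. All hearts lay close to the filter level for FST (SD 0.016 in males and 0.069 in females). Its small difference therefore does not show how FST stood to the chromosome. ACVR1 (−0.10, interval −0.43 to 0.24) and ACVR2A (0.05, interval −0.34 to 0.43) overlapped between male and female hearts.

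**Figure D2:**
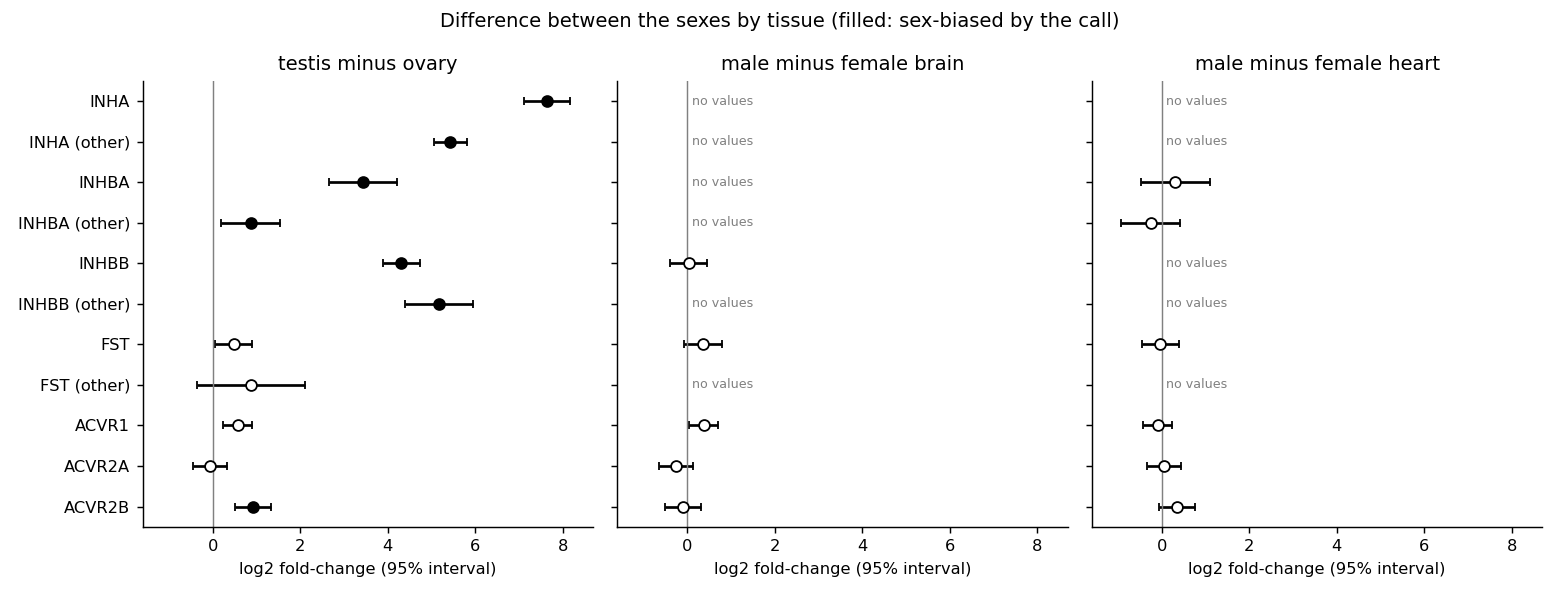
Log2 fold-change, male minus female, with its 95% interval (horizontal axis) for each probe set (rows) in gonad, brain and heart. Filled points were called at an adjusted p below 0.05 and a fold-change over 1.5: 4 of 7 genes in gonads, 0 of 5 in brain and 0 of 5 in heart. Of all probe sets, 26.6% were called in gonads, 1.58% in brain and 1.73% in heart.

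Whether the sex difference itself differed between tissues was tested in the same fit, with a call at an adjusted p below 0.05. For INHBB it was 4.28 larger in gonads than in brain (SE 0.27, adjusted p = 7.35e-07), and for ACVR2B 1.02 larger (adjusted p = 0.0177), so 2 of 5 genes were called, where 14.6% of probe sets were. The call of ACVR2B was lost without the male brain of embryo 16 (adjusted p = 0.0539) and without the ovary of embryo 12 (0.0504). Without the ovaries of embryos 12 and 2, which leaves a single ovary, its value was 0.92. Between gonads and heart the sex difference of INHBA was 3.13 larger in gonads (SE 0.51, adjusted p = 0.00123), 1 of 5 genes called, where 15.3% of probe sets were. With its second probe set the INHBA difference was 1.12 (adjusted p = 0.111). For ACVR1 the value was 0.66 (adjusted p = 0.0553), and with the embryo as a block, since arrays of 1 embryo deviated together, it was 0.67 and called (adjusted p = 0.0432). Between brain and heart 0 of 4 genes were called, none with an unadjusted p below 0.05 in limma, where 0.0538% of probe sets were called.

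The second question was how gonads stood to brain and heart within a sex. Here testes and ovaries took different places. INHBB was 40.0-fold higher in testes than in male brain and 2.07-fold higher in ovaries than in female brain. INHBA was not called different between testes and male heart but was 8.52-fold lower in ovaries than in female heart. ACVR2B, in contrast, was lower in gonads than in brain and heart in both sexes, and ACVR2A was lower in gonads than in brain in both sexes. The median over all probe sets was above 0 in these comparisons, at 0.21 for testes against male brain, 0.16 for testes against male heart, 0.20 for ovaries against female brain and 0.16 for ovaries against female heart.

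Against male brain, 3 of 5 genes were called in testes, where 58.1% of probe sets were. INHBB rose (5.32, SE 0.19, adjusted p = 5.77e-11), ACVR2B fell by 2.48 (5.59-fold, adjusted p = 3.85e-09) and ACVR2A fell by 0.94 (adjusted p = 0.000191). ACVR2B was at 5.69 to 6.10 in testes and at 8.15, 8.65 and 8.34 in male brains, and ACVR2A was at 9.92 to 10.33 in testes and at 10.77, 10.92 and 11.41 in male brains. Neither receptor overlapped between the tissues. FST differed by 0.57, just under the fold-change required (1.49, adjusted p = 0.0177), and was called without the male brain of embryo 16 or the testis of embryo 19 or 9. ACVR1 differed by −0.09 (adjusted p = 0.62).

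Against female brain, 3 of 5 genes were likewise called in ovaries, where 56.5% of probe sets were. INHBB rose by 1.05 (SE 0.19, adjusted p = 0.000342), with 7.58 as the lowest ovary and 6.99 as the highest female brain. ACVR2B fell by 3.51 (11.4-fold, adjusted p = 5.51e-11), with ovaries up to 5.35 and female brains at 8.60, 8.76, 8.08 and 8.48. ACVR2A fell by 1.13 (adjusted p = 3.05e-05), with ovaries up to 10.39 and female brains at 11.44, 11.03, 11.01 and 11.67. FST (0.46, adjusted p = 0.0546) was called without the ovary of embryo 2 (0.67), and ACVR1 (−0.29, adjusted p = 0.12) was not called.

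Against male heart, 3 of 5 genes were called in testes, where 50.4% of probe sets were. ACVR2B fell by 0.98 (adjusted p = 0.000332), ACVR2A fell by 0.61 (adjusted p = 0.00792) and FST rose by 0.88 (adjusted p = 0.0011). The testes had FST at 4.69 or above, and male hearts at 4.28 or below, close to the filter level. The call of ACVR2A was lost without the testis of embryo 16 (−0.57) or 21 (−0.55), since its fold-change of 1.53 was at the threshold. INHBA was at 6.52 to 8.12 in testes and 6.84 to 8.04 in male hearts, a difference of 0.04 (interval −0.75 to 0.82, adjusted p = 0.941) whose sign turned when each array was centred on its median. The second INHBA probe set differed by 0.08 (adjusted p = 0.847), and ACVR1 by 0.24 (adjusted p = 0.202).

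Against female heart, 2 of 5 genes were called in ovaries, where 52% of probe sets were. INHBA fell by 3.09 (SE 0.36, adjusted p = 6.98e-06), with ovaries up to 4.49 and female hearts from 7.09. The second probe set of INHBA was below the filter level in ovaries and differed by at least 1.31-fold (adjusted p = 0.0104). ACVR2B fell by 1.56 (2.95-fold, adjusted p = 2.01e-06). ACVR2A (−0.50, adjusted p = 0.0246) and ACVR1 (−0.42, adjusted p = 0.0284) were under the fold-change required, and ACVR2A passed it without the ovary of embryo 12 or the female heart of embryo 10, or with centred arrays. FST differed by 0.37 (adjusted p = 0.123).

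**Figure D3:**
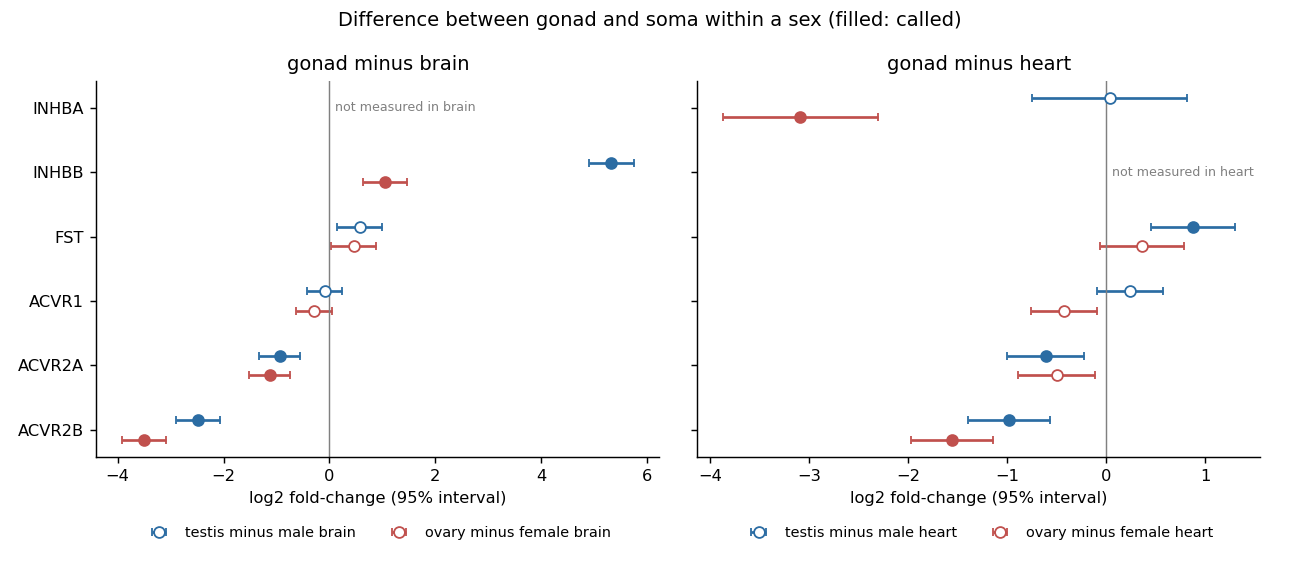
Log2 fold-change of gonad minus brain (left) and gonad minus heart (right) within each sex, with 95% intervals, for the main probe sets of 6 genes. Filled points were called: ACVR2B in all 4 comparisons, and INHBA against heart in ovaries (−3.09) but not in testes (0.04).

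Between brain and heart over both sexes, 1 of 4 genes was called, where 58.5% of probe sets were and the median over all was −0.17. ACVR2B was higher in brain by 1.73 (SE 0.14, 3.31-fold, adjusted p = 2.26e-09). ACVR2A was higher by 0.48 (adjusted p = 0.00268), under the fold-change required, and ACVR1 (0.10, adjusted p = 0.426) and FST (0.10, adjusted p = 0.51) were not called.

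Each gene thus had its own order of groups. INHBB descended from testes (12.11 ± 0.21, SD, n = 4) to ovaries (7.81 ± 0.26, n = 3), male brain (6.79 ± 0.37, n = 3) and female brain (6.76 ± 0.18, n = 4), and only both brains overlapped as neighbours. INHBA had testes (7.52 ± 0.74), male heart (7.48 ± 0.60) and female heart (7.17 ± 0.09) overlapping, and ovaries (4.08 ± 0.35) apart at the bottom. ACVR2B descended over female brain (8.48 ± 0.29), male brain (8.38 ± 0.26), male heart (6.87 ± 0.17), female heart (6.53 ± 0.09), testes (5.90 ± 0.22) and ovaries (4.97 ± 0.44), and again only the brains overlapped. ACVR2A was highest in female brain (11.29 ± 0.32) and male brain (11.03 ± 0.34), followed by male heart (10.70 ± 0.03), female heart (10.66 ± 0.20), ovaries (10.16 ± 0.21) and testes (10.09 ± 0.19), with overlap of all neighbours but male brain and male heart. ACVR1 had the flattest profile of the receptors, with means of 11.14 in ovaries to 11.80 in male brain and every neighbour overlapping. FST means ran from 5.14 in testes to 4.20 in female brain, and only its lowest neighbours, male heart (4.26) and female brain, did not overlap.

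The genes whose profiles over arrays were most like those of a subunit gene or FST were found by Pearson's r, as a description. Over 14 gonad and heart arrays INHBA was followed most closely by LGALSL (r = 0.968), C1QTNF7 (r = 0.954) and MEOX2 (r = 0.947), and 13 of 7211 genes exceeded 0.9. MEOX2, a homeobox transcription factor, was at 10.79 ± 0.42 in testes, 8.07 ± 0.22 in ovaries, 11.22 ± 0.01 in male heart and 11.16 ± 0.13 in female heart. Ovaries were thus the lowest of these 4 groups for MEOX2, as for INHBA, but MEOX2 was lower still in male brain (6.64 ± 0.53) and female brain (6.07 ± 0.76), where INHBA had no values. INHBB, over 14 gonad and brain arrays, was most like ACTG2 (r = 0.989), CEP131 (r = 0.986) and ITGA9 (r = 0.982), with 198 of 7373 genes over 0.9. ACTG2, the smooth muscle gamma actin, was at 11.20 ± 0.25 in testes, 5.17 ± 0.12 in ovaries, 4.52 ± 0.34 in male brain and 4.58 ± 0.29 in female brain.

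For INHA, measured in 7 gonad arrays alone, the closest were PELO (r = 0.999), XPA (r = 0.999) and NSA2 (r = 0.998), but 813 of 8404 genes exceeded 0.9 over these 7 points of 2 sexes. All 3 are Z-linked, and their testis–ovary gap was much smaller than that of INHA: PELO was at 9.48 ± 0.03 in testes and 8.26 ± 0.02 in ovaries. For FST over 21 arrays the closest were ARF6 (r = 0.882), RAP2C (r = 0.878) and MARCH2 (r = 0.867), and 0 of 6670 genes exceeded 0.9. These arrays share tissue, sex and RNA kit within a group, and are not independent points.

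**Figure D4:**
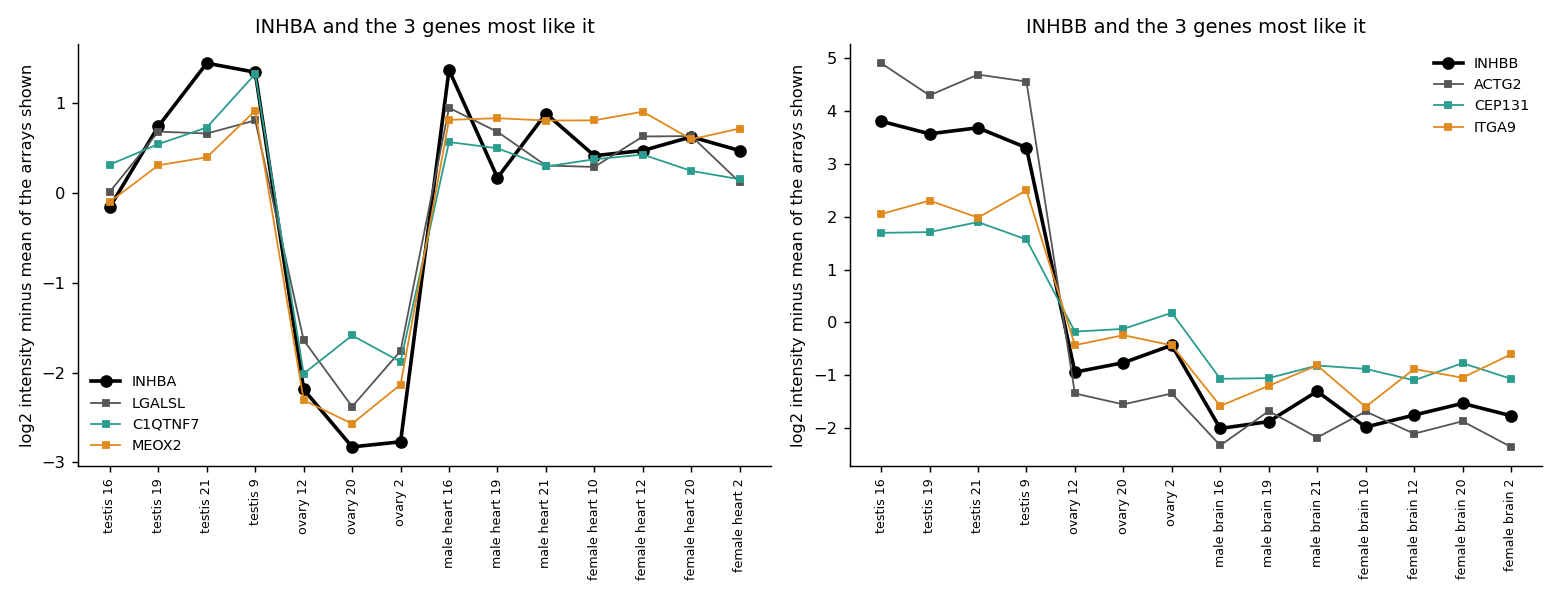
Log2 intensity minus the mean of the arrays shown (vertical axis) in each array (horizontal axis, tissue and embryo) for INHBA (left) and INHBB (right), in black, and the 3 genes most like each. INHBA and its 3 genes were low in the 3 ovaries, and INHBB and its 3 genes were high in the 4 testes.

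Other genes of the pathway were counted by lists, over the main probe set of each gene, beside 12.8% of all probe sets called higher and 13.8% called lower in testes. Of 12 binding partners and follistatin-like genes, 6 had a main probe set measured in gonads, and 4 were called higher in testes and 0 lower, with a median of 0.98 where the median over all probe sets was 0.02. With any probe set counted, 5 of 7 were called higher, the added gene being FSTL4. Without the ovaries of embryos 12 and 2, which leaves a single ovary, the median of the 6 was 0.92 and ENG was 0.99. The 4 genes were CFC1, a Z-linked co-receptor of the Nodal ligand (13.06 ± 0.25 in testes and 9.22 ± 0.79 in ovaries, difference 3.85, adjusted p = 6.48e-06), the follistatin-like genes FSTL5 (1.27) and FSTL1 (0.89), and endoglin (ENG, 1.06), a co-receptor of endothelial cells. A second probe set of FSTL1 was not called (0.99, adjusted p = 0.171). TGFBR3, the co-receptor betaglycan, through which inhibin blocks activin receptors in mammals, was not called (0.21, adjusted p = 0.561), nor was the decoy receptor BAMBI (0.05).

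Of 20 SMADs and regulators, 16 were measured in gonads, 2 of which were higher and 2 lower in testes (median 0.03), a share close to the 26.6% of all probe sets. SMAD2 and SMAD3, which carry the activin signal, differed by −0.15 (adjusted p = 0.795) and 0.10 (adjusted p = 0.75). The called genes were the inhibitory SMAD6 (1.05, adjusted p = 4.85e-05) and SMAD1, which serves bone morphogenetic proteins (0.86, adjusted p = 0.000207), both higher, and the co-repressor TGIF1 (−1.22, adjusted p = 1.93e-05) and the inhibitory, Z-linked SMAD7 (−0.63, adjusted p = 0.0125), both lower. SMAD7 lost its call without the testis of embryo 16 (−0.53) or the ovary of embryo 12 (−0.55, adjusted p = 0.055).

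Among 25 other ligands of the family, 9 were measured in gonads, and 1 was higher and 4 were lower in testes (median −0.18), beside the 12.8% and 13.8% of all probe sets given above. Without the ovaries of embryos 12 and 2, which leaves a single ovary, the median was −0.11. BMP7 was at 3.53 ± 0.69 in testes and 7.81 ± 0.48 in ovaries (adjusted p = 1.7e-07), below the filter level in testes and thus at least 14.0-fold lower there. MSTN, the muscle growth inhibitor myostatin, was at 2.48 to 2.50 in testes, against 7.37, 5.85 and 2.81 in ovaries, so that the ovary of embryo 2 was under that level too. It was called at the edge of the threshold (at least 2.54-fold lower, adjusted p = 0.0497). The call was lost without any single testis or the ovary of embryo 12 or 20, and the bound was 1.26-fold without the ovary of embryo 12. BMP3 (−2.32) and TGFB2 (−1.11) were lower as well, and BMP5 was higher (1.88, adjusted p = 0.00394). BMP3 lost its call without the ovary of embryo 2 (−1.82, adjusted p = 0.0666). Without the ovaries of embryos 12 and 2, BMP3 was −1.51, TGFB2 −0.95 and BMP5 1.43. The Sertoli cell hormone AMH differed by 0.47 (adjusted p = 0.0359) in its main probe set, under the fold-change required, and by 1.23 (adjusted p = 0.00166) in its second. The main probe set was nearly as bright in heart, at 8.22 to 8.71 in males and 8.19 to 8.41 in females, as in ovaries (8.51 to 8.78). Whether it reports AMH alone was not tested. Of 4 of 7 other receptors measured, BMPR2 was higher in testes, at 9.20 ± 0.03 in testes and 6.61 ± 0.40 in ovaries (adjusted p = 3.15e-05), and BMPR1B was lower (−0.79, adjusted p = 0.0233). The call of BMPR1B was lost without the testis of embryo 19 (−0.62) or 21 (−0.74) or the ovary of embryo 12 (−0.67). Of 6 of 14 processing and antagonist genes measured, LTBP1, which holds latent TGF-beta in the matrix, was lower in testes in all 3 of its probe sets measured in gonads (−3.71, −2.99 and −3.30), and no gene was higher.

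The gonadotropin axis connects inhibin to the pituitary. Of 8 genes 3 were measured in gonads. The receptor of follicle-stimulating hormone, FSHR, was at 7.82 ± 0.75 in testes and 9.62 ± 0.22 in ovaries (−1.80, adjusted p = 0.00941), and the receptor of luteinizing hormone, LHCGR, at 9.69 ± 0.36 in testes and 12.10 ± 0.30 in ovaries (−2.41, adjusted p = 0.000351). Both receptors were thus lower in testes. Without the ovaries of embryos 12 and 2, which leaves a single ovary, FSHR was −1.67. NR5A1, a transcription factor of steroid-producing cells, differed by 0.58 (adjusted p = 0.0545). In brain and heart no gene of the 6 pathway lists was called between the sexes, where 1.58% and 1.73% of all probe sets were, so that few or no calls among so few genes would match the whole table. In brain, SMAD2 had the largest difference of its list (1.22, adjusted p = 0.142).

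**Figure D5:**
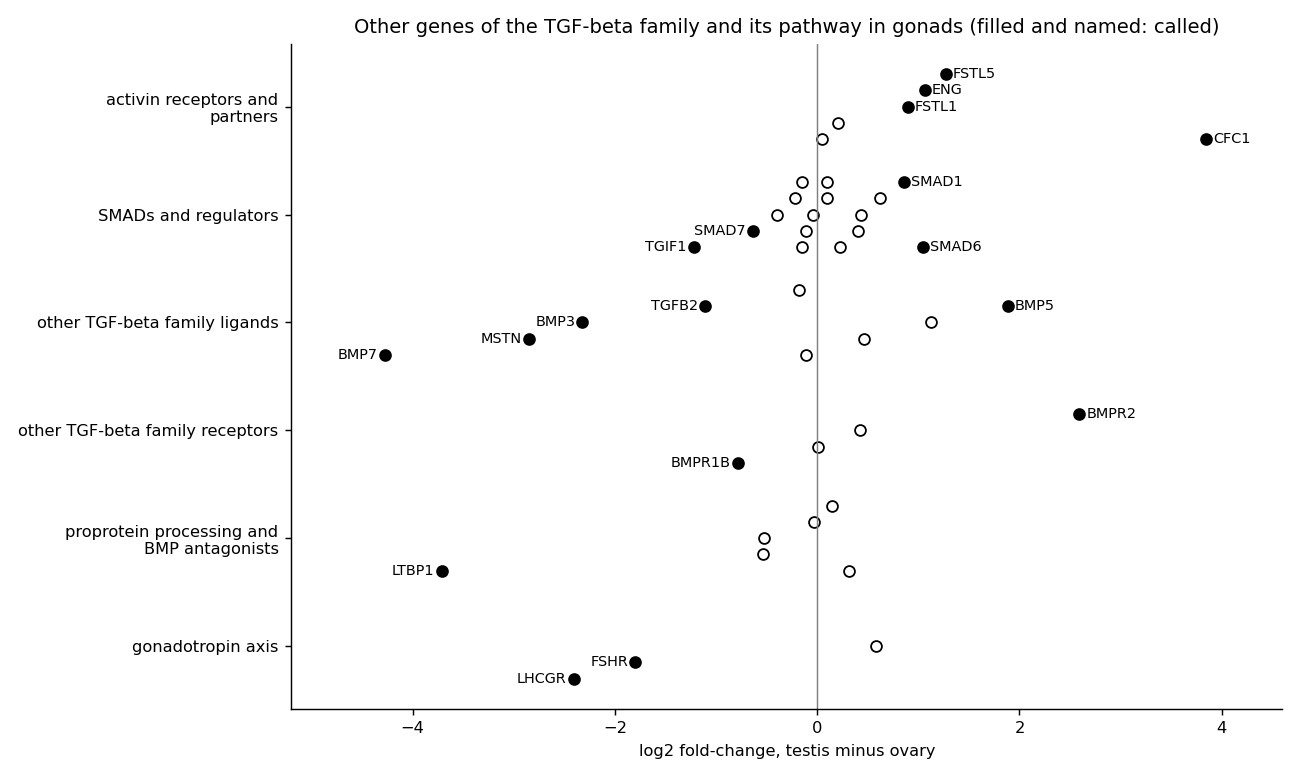
Log2 fold-change, testis minus ovary (horizontal axis), of the measured genes of 6 pathway lists (rows, with points offset vertically only for legibility). Points are main probe sets, and filled, named points were called: 4 of 6 binding partners were higher in testes, and 4 of 9 other ligands were lower. Of all probe sets, 12.8% were called higher and 13.8% lower in testes.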

How the data were processed

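RNA of gonad, brain and heart from 18-day chicken embryos was hybridized to 21 arrays. The deposited values are log2 intensities. The authors computed them by GCRMA (background correction, then quantile normalization, then summary by median polish); R 2.4.1 and MAS5 also stand in the submitters' processing notes. The authors removed arrays that failed quality control. The descriptions of some arrays name a human array, but all probe sets are those of the chicken array. Blank tissues follow a filter: wherever a tissue has values, the mean of the higher sex reached 4.0 (16499 probe sets in gonad, 16113 in brain, 15282 in heart). The paper states that its filter also used MAS5 present calls, required in most samples of a tissue and sex. A blank tissue can therefore mean a low mean or too few present calls. A quantile-normalized array hides a shift shared by most genes, and the number of arrays limits precision. Whether all tissues were normalized together is not given in the sources used here.

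Probe sets were placed by gene number (16063) or symbol (132) in the GRCg7b gene table; 85 list several genes, 3592 none and 2 a gene outside the table. Coordinates and sequences are not used here. Limma 3.58.1 in R 4.3.3 was fitted to all arrays with sex and tissue as 1 combined factor of 6 groups, over every tissue with values, with empirical Bayes moderation and Benjamini-Hochberg adjustment over all probe sets of a comparison. Calls needed an adjusted p below 0.05 and a fold-change over 1.5 (differences of sex differences: adjusted p alone). Likeness, summaries and plots used Python 3.11.15, numpy 2.4.6, pandas 2.3.3 and matplotlib 3.10.9. The fit was tested on simulated data with equal, independent noise for every probe set and array. That test did not cover the pairing of embryos or the spread of values at background.

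Arrays of the same embryo number and sex were taken as 1 embryo. Deviations from group means correlated at 0.164 to 0.455 in 19 of 19 same-embryo pairs and at −0.433 to 0.199 (median −0.105) in 54 others, so the numbers pair the arrays; the within-embryo correlation was 0.121.

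Named are all measured members, from each pathway list up to 4 called genes with the largest testis–ovary difference and up to 2 called in brain or heart, or the 2 with the highest mean where none was called, the 3 genes most like each subunit gene and FST, and leading markers; further genes of the lists were named after their values were seen. The members and lists were chosen with earlier results of these data known. Alternatives were the embryo block, only the groups compared, array weights, trend and robust moderation, centred arrays, fold 2, 1 probe set per gene, the other probe set and leaving out each array.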

Additional observations from a re-analysis of the deposited data

Results flagged for a closer look

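The difference between the sexes was not the same in all tissues for 3 genes. The sex difference of INHBB was 4.28 larger in gonads than in brain, that of ACVR2B 1.02 larger in gonads than in brain, and that of INHBA 3.13 larger in gonads than in heart, each by the test of the difference itself. For ACVR2B the test passed its threshold only with the male brain of embryo 16 and the ovary of embryo 12 included.

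For FST the female brain of embryo 2, at 4.23, lay apart from the other 3 female brains, at 4.19, 4.20 and 4.19. The whole group lies near the filter level of 4.0. It was 1 of 22 groups of 4 arrays examined, and chance marks about 1 in 20.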

How the results depend on the processing

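Of 960 recomputed values of 55 gene-by-comparison results, 910 kept direction and call, 11 lost a call, 20 gained one and 19 changed sign. INHA, INHBA and INHBB kept their call between testes and ovaries under all 17 alternatives of each. For INHBA these include its second probe set, with a limma adjusted p of 0.0483, ovaries under the filter level and a bound of only 1.16-fold. For INHA the ovaries lay under the filter level in both probe sets. Of the 17, leaving out the ovaries of embryos 12 and 2 leaves a single ovary. At a fold-change of 2, called probe sets numbered 2832 (main 4391) between testes and ovaries, 144 (main 255) between male and female brains, 126 (main 265) between hearts, 4340 (main 6699) between testes and male hearts, where 0 genes of the system instead of 3 were called, and 4516 (main 6918) between ovaries and female hearts. With only the groups compared, 163 were called in brain and 130 in heart. Leaving out 1 array gave 212 to 406 calls in brain (most without the male brain of embryo 19), 171 to 269 in heart (fewest without the male heart of embryo 19) and 7 to 21 for the sex difference in brain minus that in heart (main 7, most without the male brain of embryo 19). It gave 1 to 2 genes for the sex difference in gonads minus that in brain (main 2). For gonads minus heart it gave 1 to 2 (main 1). Leaving out the ovaries of embryos 12 and 2 was an alternative chosen after seeing the data. The count for gonads minus heart was 2 with the embryo as a replicate block, with trend and robust moderation and with 1 probe set per gene. The block changed no other call of the system's genes.

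Signs turned only in differences that were not called. Leaving out 1 array gave −0.16 to 0.048 for ACVR2A between testes and ovaries (0.12 without the ovaries of embryos 12 and 2), −0.24 to 0.017 for ACVR2B and −0.18 to 0.17 for INHBB between male and female brains, −0.23 to 0.022 for ACVR1 and −0.052 to 0.094 for ACVR2A between male and female hearts, −0.20 to 0.0031 for ACVR1 between testes and male brain, and −0.28 to 0.37 for INHBA between testes and male heart (−0.087 with centred arrays). INHBA between male and female hearts was −0.25 with the other probe set. For FST the sex difference in gonads minus that in brain was −0.095 to 0.32 (−0.16 without the ovaries of embryos 12 and 2), and for ACVR2A that in gonads minus that in heart was −0.20 to 0.0028 (0.072 without those ovaries). The causes were not tested. The main probe set of FST and the second ones of FST and INHBA lie near the filter level, and groups of 3 or 4 embryos limit the precision of every difference.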

Other observations

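Several other genes of the pathway lists stood differently to the soma in testes and in ovaries, BMP7 in direction and LTBP1 and CFC1 in size. BMP7 was at least 3.04-fold lower in testes, where it was under the filter level, than in male brain (adjusted p = 0.000107), but higher in ovaries than in female brain (1.82, adjusted p = 0.000395). The difference between the sexes was itself different in gonads and brain (−3.89 as measured, adjusted p = 7.67e-05). As BMP7 in testes was not told apart from background, this size is uncertain. The opposite direction is stated for brain alone. Against male heart BMP7 was at least 53.0-fold lower in testes (limma adjusted p = 2.26e-10). LTBP1 was higher in testes than in male brain (3.44) and higher still in ovaries than in female brain (6.50), with a difference of sex differences of −3.06 (adjusted p = 0.00043). CFC1 was higher in testes than in male heart by 8.90 and higher in ovaries than in female heart by 4.77, and had no values in brain.

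TGIF1 was higher in gonads than in soma in both sexes, by 3.19 in testes against male brain, 4.31 in ovaries against female brain, 0.96 in testes against male heart and 2.52 in ovaries against female heart. SMAD6 was lower in gonads than in heart in both sexes, by −1.47 in testes and −2.49 in ovaries, and higher than in brain, by 1.69 in testes and 0.72 in ovaries. The follistatin-like gene FSTL4 was measured in gonads only by its second probe set, which was higher in testes (3.02, adjusted p = 0.00686). These genes were picked after their values were seen.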
